A study of Mus musculus with 12 samples.

Results

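The 10 genes described here encode laminin chains (Lama1, Lama5, Lamb1, Lamc1), the main collagen IV chains (Col4a1, Col4a2), the nidogens (Nid1, Nid2), perlecan (Hspg2) and the matrix glycoprotein Sparc. They are 10 of the 56691 mouse gene IDs counted in this series, and each of the 10 passed the filter on low counts that left 13230 genes for testing. They were selected on their names, as basement membrane genes, and on the measured levels of Lamb1, which had been seen to fall with the dose of an MRE11 inhibitor. The inhibitor comparisons of the 10 genes are therefore given as descriptions, and the comparison of 2i with primed cells, which that choice did not use, is tested.

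The cells were R1 129 murine male embryonic stem cells, an established line grown on gelatin in medium with serum and LIF. The 12 libraries of 3′ mRNA sequencing fall into 4 groups of 3: untreated cells at day 0, which the labels call primed; cells after 6 days of 2i, a medium supplement that by its usual meaning holds inhibitors of MEK and GSK3; and cells after 6 days of 2i with 25 µM or with 50 µM of the MRE11 inhibitor, MRE11i. MRE11 is a nuclease of the complex that senses and processes DNA double-strand breaks. All 12 libraries come from 1 cell line, every 2i library is from day 6 and every primed library from day 0, so 2i and time in culture cannot be told apart. The labels do not say whether the replicates were separate cultures, so p-values rest on the spread among these libraries, and that may be technical only.

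A basement membrane is a thin sheet of matrix beneath epithelia, and the first one of the mouse embryo forms around the time of implantation. It is built on a laminin network, each laminin being a trimer of an α, a β and a γ chain, and on a network of collagen IV trimers of 2 Col4a1 chains and 1 Col4a2 chain, with nidogens and perlecan linking the 2 networks. Trimers assemble inside the cell before secretion, and Sparc, a collagen-binding glycoprotein, acts in the handling of collagen IV outside it. Embryonic stem cells make laminin and other matrix proteins themselves and hold on to them through integrins.

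Lamb1 lies on chromosome 12 (31265234-31329644, plus strand) and Nid1 on chromosome 13 (13437551-13512269, plus strand) of GRCm38, both protein coding. They had the largest fall and the largest rise of the 10 genes between primed and 2i cells, so the sequences just upstream of their annotated starts are shown, taken from RefSeq (GRCm38.p6). Each stops 1 base before the start of the GENCODE gene and is written 5′ to 3′. Capitals mark matches on either strand to the GC box GGGCGG and to the CCAAT box CCAAT; no match overlaps another.
Lamb1, chr12:31265043-31265233, plus strand: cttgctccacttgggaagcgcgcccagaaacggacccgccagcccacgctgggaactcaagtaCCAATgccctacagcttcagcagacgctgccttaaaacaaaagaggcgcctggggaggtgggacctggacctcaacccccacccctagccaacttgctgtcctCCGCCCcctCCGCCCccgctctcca
Nid1, chr13:13437352-13437550, plus strand: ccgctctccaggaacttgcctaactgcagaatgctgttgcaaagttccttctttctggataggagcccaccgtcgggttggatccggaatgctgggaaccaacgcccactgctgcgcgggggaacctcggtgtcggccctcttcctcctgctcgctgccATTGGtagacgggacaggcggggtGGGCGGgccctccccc
The Lamb1 stretch of 191 bases is 63.9% G or C and holds 2 GC boxes and 1 CCAAT box, and the Nid1 stretch of 199 bases is 63.8% G or C and holds 1 of each. Neither motif is rare: of 32851 RefSeq windows of 300 bases around gene starts, 35.7% hold GGGCGG and 37.4% hold CCAAT. The RefSeq table gave such a window for 7 of the 10 genes, with Lama1, Lamc1 and Nid2 not matched, and the windows of Lamb1 and Nid1 hold no further match to either motif. None of the 7 windows holds the TATA box TATAAA, found in 13.6% of all windows. None holds the AP-1 motif TGANTCA, found in 7.8%. The letters GATAA, to which factors such as Gata4 bind, are in 25.4% of all windows and in none of the 7.

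Col4a1 (chromosome 8, 11198423-11312826, minus strand) and Col4a2 (chromosome 8, 11312805-11449287, plus strand) stand head to head, so their starts share the bases shown here on the plus strand.
Col4a1-Col4a2 overlap, chr8:11312805-11312826: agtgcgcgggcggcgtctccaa
These 22 bases are the only stretch that belongs to both genes in the GENCODE annotation of GRCm38, and they lie at the 5′ ends, while the 3′ libraries count transcript ends. They hold the GC box GGGCGG, which is not set in capitals here. Nid2 (chromosome 14, 19751265-19811787, plus strand) shares the last 437 bases of its 3′ end with the 3′ end of Rtraf, a gene on the opposite strand. Whether reads were counted by strand is unknown from the labels and files, so reads of Nid2 and Rtraf may have been mixed and the values of Nid2 are uncertain. Rtraf itself had a mean level of 271 ± 10.7 in primed and 271 ± 9.26 in 2i cells (CPM, the read count relative to a library size scaled by TMM; SD, n = 3). Gm15418, an antisense gene over the 3′ end of Col4a1, had 0 counts in all 12 libraries.

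Library totals ran from 5894561 to 7060126 counts, and CPM values carry no correction for length, so levels are compared within a gene. In every group the replicate 1 library stood apart from the other 2: a chi-square statistic of the counts, divided by its degrees of freedom, was 8.82 to 11.71 between replicate 1 and either other replicate, and 2.48 to 6.64 between replicates 2 and 3. The 10 stem cell markers summed to 4387 to 5079 CPM over the libraries, a sum with no trend over the groups that hides changes within it. In 2i against primed 2 of them rose (Nanog and Esrrb) and 3 fell, Lin28a from 177 to 22.1 CPM, Utf1 from 351 to 69.8 CPM and Tdgf1 from 857 to 472 CPM, while Pou5f1 was counted at only 6.53 to 8.41 CPM in the group means. RNA of a whole culture cannot separate fewer cells of a type from less RNA per cell.

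**Figure D1:**
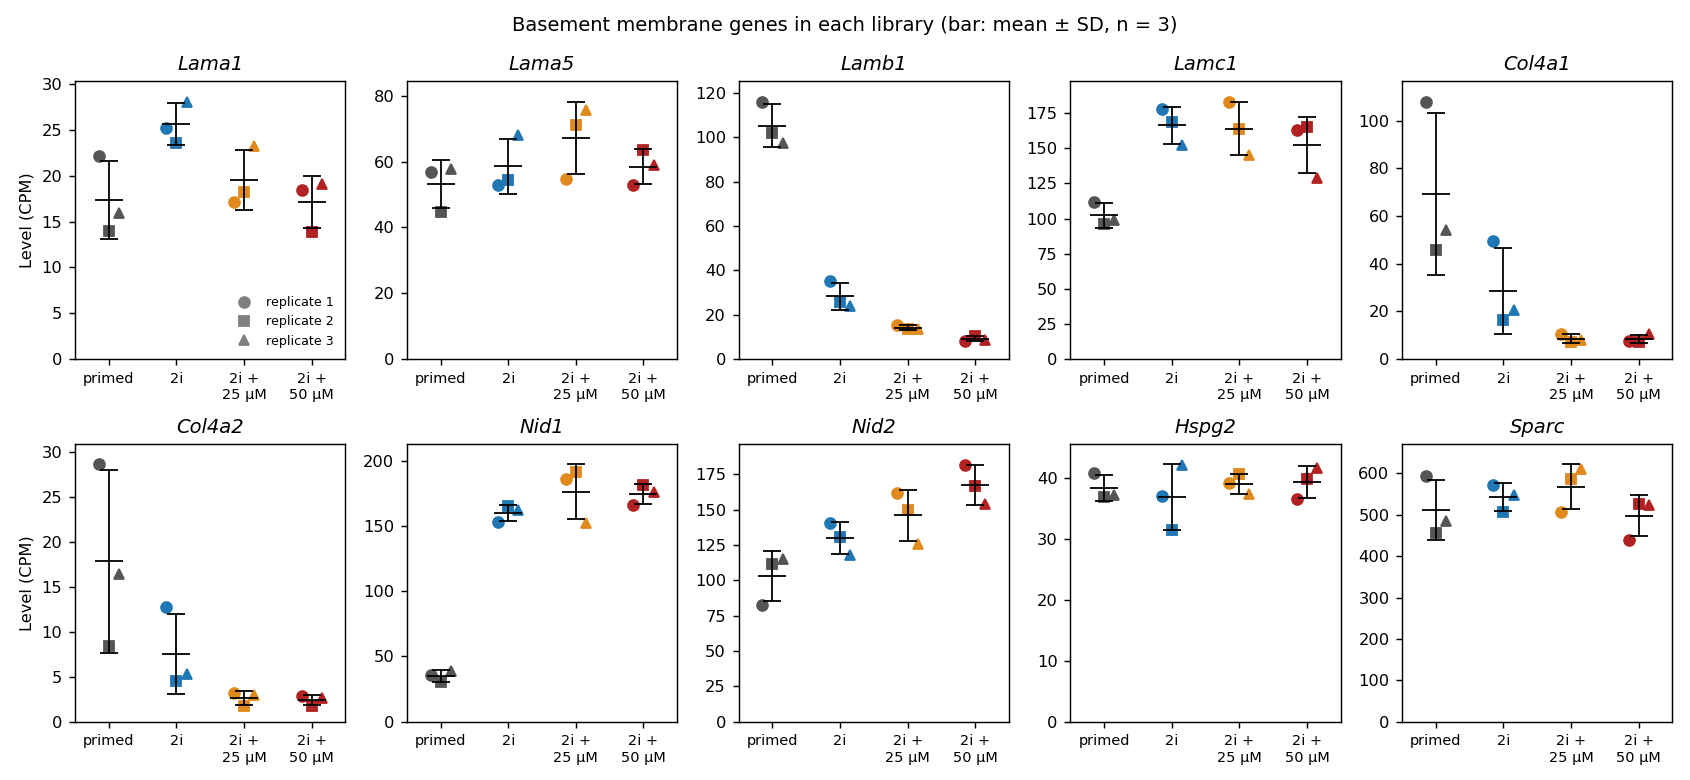
Level of each of the 10 genes in each library (y axis, CPM; symbols, replicates; bars, mean ± SD, n = 3 per group). Lamb1 goes from 105 in primed to 9.05 at 50 µM and Nid1 from 35.1 in primed to 160 in 2i, while Hspg2 has group means between 36.8 and 39.3.

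Between primed and 2i cells the 10 genes did not move as a block. Nid1, Lamc1, Lama1 and Nid2 rose, Lamb1 and Col4a2 fell, and Col4a1, Lama5, Hspg2 and Sparc did not pass the test. That is 6 of 10 called, where 40.4% of the 13230 genes were called (edgeR quasi-likelihood test, Benjamini-Hochberg adjusted p under 0.05). Without replicate 1 of every group, left out after its libraries were seen to stand apart, 6 were again called, 3 higher and 3 lower. That fit called 5048 of 13287 genes. Leaving out single libraries gave 4 to 6 of the 10 and 4615 to 4991 of all genes. The median log2 fold change of the 10 genes was 0.11, against -0.01 over all genes tested.

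Lamb1, the laminin β1 chain, was counted at 116, 102 and 97.5 CPM in primed cells and at 35.2, 25.9 and 23.9 CPM in 2i cells. All 2i libraries lay below all primed libraries, which was so for 25.8% of the genes tested. The mean was 3.72-fold lower in 2i, a log2 fold change of -1.89 ± 0.13 (SE; edgeR adjusted p = 1.05e-10). Behind these levels were 148 to 749 reads per library.

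Lamc1, the laminin γ1 chain that pairs with the β chains in most laminins (chromosome 1, 153218922-153332786, minus strand), went the other way. Its level was 112, 95.8 and 98.8 CPM in primed cells and 178, 169 and 152 CPM in 2i cells, with no overlap. The log2 fold change was 0.70 ± 0.11 (SE; edgeR adjusted p = 2.08e-05). The ratio of Lamb1 to Lamc1 reads, which is not a molar ratio, was therefore 1.03 ± 0.0395 (SD, n = 3) in primed cells and 0.169 ± 0.0243 in 2i cells.

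The 2 α chains were measured at different precision. Lama1, the α chain of laminin-111 and the main α chain of the early embryo (chromosome 17, 67697259-67822647, plus strand), was at 22.2, 14.0 and 15.9 CPM in primed cells and at 25.2, 23.6 and 28.1 CPM in 2i cells. The groups did not overlap, and Lama1 rose by 0.56 ± 0.17 on the log2 scale (SE; edgeR adjusted p = 0.012). That call rests on 83 to 174 reads per library and ended when primed replicate 2 (0.42, adjusted p = 0.0841), primed replicate 3 (0.49, adjusted p = 0.0582) or 2i replicate 3 (0.49, adjusted p = 0.0592) was left out. Lama5, the α chain of laminin-511, which supports stem cell culture (chromosome 2, 180176373-180225859, minus strand), ranged from 44.7 to 57.8 CPM in primed and from 52.8 to 68.2 CPM in 2i cells. These ranges overlap, and the log2 fold change was 0.14 with a 95% interval of -0.13 to 0.40.

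Col4a1 and Col4a2, the chains of the collagen IV network, were both lower on average in 2i cells, with wide spread between replicates. Col4a1 was at 108, 45.6 and 54.1 CPM in primed cells and at 49.4, 16.2 and 20.5 CPM in 2i cells. The replicate 1 library was the highest of its group in both, and the 2i replicate 1 library lay above the primed replicate 2 library, so the groups overlap. The log2 fold change of Col4a1 was -1.27 ± 0.45 (SE; edgeR adjusted p = 0.0505), just short of the threshold.

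Col4a2 was at 28.6, 8.41 and 16.4 CPM in primed cells and at 12.7, 4.57 and 5.32 CPM in 2i cells. These 6 libraries came in the same order as for Col4a1, again with replicate 1 highest in each group and the groups overlapping. Col4a2 fell by 1.24 on the log2 scale, with an SE of 0.44 (edgeR adjusted p = 0.0428). The reads of Col4a1 per read of Col4a2 were 4.17 ± 1.11 (SD, n = 3) in primed and 3.76 ± 0.183 in 2i cells, a difference smaller than the spread.

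Both collagen calls changed when single libraries were left out. Without replicate 1 of every group Col4a1 changed by -1.44 ± 0.17 (SE; edgeR adjusted p = 5.79e-08) and Col4a2 by -1.33 ± 0.29. Without primed replicate 1 alone the value of Col4a1 was -0.79 ± 0.40 and that of Col4a2 -0.72 ± 0.37 (edgeR adjusted p = 0.15), and without 2i replicate 1 alone they were -1.91 ± 0.38 (edgeR adjusted p = 0.00314) and -1.84 ± 0.42. Col4a2 also lost its call without primed replicate 3 (-1.30 ± 0.51, adjusted p = 0.074), without 2i replicate 2 (-0.97 ± 0.47, adjusted p = 0.138) or without 2i replicate 3 (-1.05 ± 0.50, adjusted p = 0.135), the first of these with a value as low as in all libraries and a larger SE. Col4a1 gained a call without primed replicate 2 (-1.50, adjusted p = 0.0378).

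**Figure D2:**
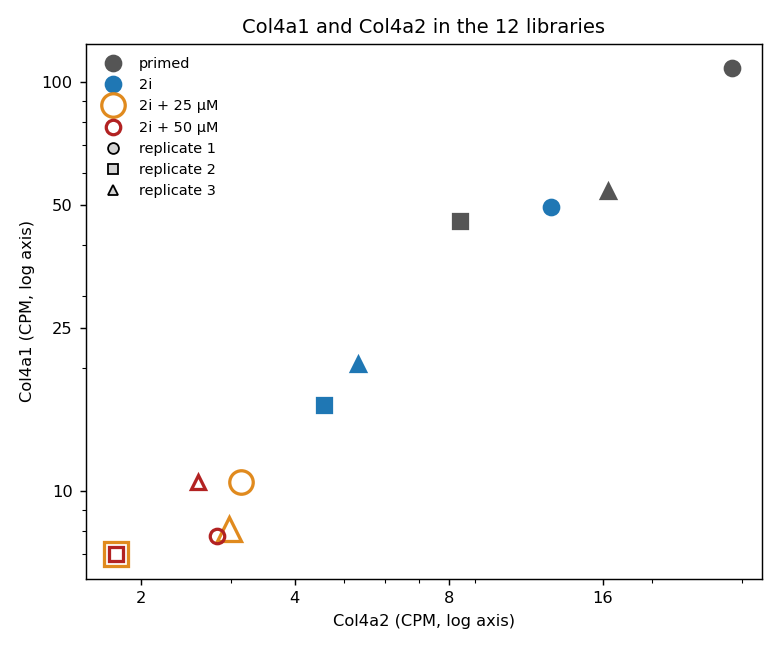
Col4a1 (y axis, CPM, log axis) against Col4a2 (x axis, CPM, log axis) in the 12 libraries, by group (colour; filled without inhibitor, open with it) and replicate (symbol). The primed and 2i replicate 1 libraries are the highest of their groups, at 108 and 49.4 CPM of Col4a1, and the 6 inhibitor libraries sit together between 7.0 and 10.5 CPM.

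Of the linker proteins, Nid1 changed most. Nid1 was at 35.9, 30.4 and 38.9 CPM in primed cells and at 153, 165 and 162 CPM in 2i cells, from 181 to 1123 reads per library. Every 2i library lay above every primed library, as in 24.6% of the genes tested. The mean was 4.56-fold higher in 2i, a log2 fold change of 2.19 ± 0.11 (SE; edgeR adjusted p = 1.04e-12).

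Nid2, the second nidogen, was at 82.4, 112 and 115 CPM in primed cells and at 141, 131 and 118 CPM in 2i cells. The groups did not overlap, but the highest primed and the lowest 2i library were close. Nid2 rose by 0.33 ± 0.12 on the log2 scale (SE; edgeR adjusted p = 0.0319), a call that was lost without primed replicate 1 (0.20, adjusted p = 0.176), without 2i replicate 1 (0.29, adjusted p = 0.0915), without 2i replicate 2 (0.34, adjusted p = 0.0577) and without replicate 1 of every group (0.14, adjusted p = 0.318). The ratio of Nid1 to Nid2 reads was 0.349 ± 0.0828 (SD, n = 3) in primed and 1.24 ± 0.143 in 2i cells.

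Hspg2, the heparan sulfate proteoglycan perlecan (chromosome 4, 137468769-137570630, plus strand), ranged from 36.8 to 40.7 CPM in primed and from 31.4 to 42.1 CPM in 2i cells. Its log2 fold change was -0.06 with a 95% interval of -0.29 to 0.17. Sparc (chromosome 11, 55394500-55423183, minus strand), with 2704 to 3824 reads per library in these 2 groups, ranged from 455 to 594 CPM in primed and from 508 to 573 CPM in 2i cells. Its log2 fold change was 0.09 with a 95% interval of -0.12 to 0.29. With 3 libraries a group, a change inside these intervals could not be told from none.

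**Figure D3:**
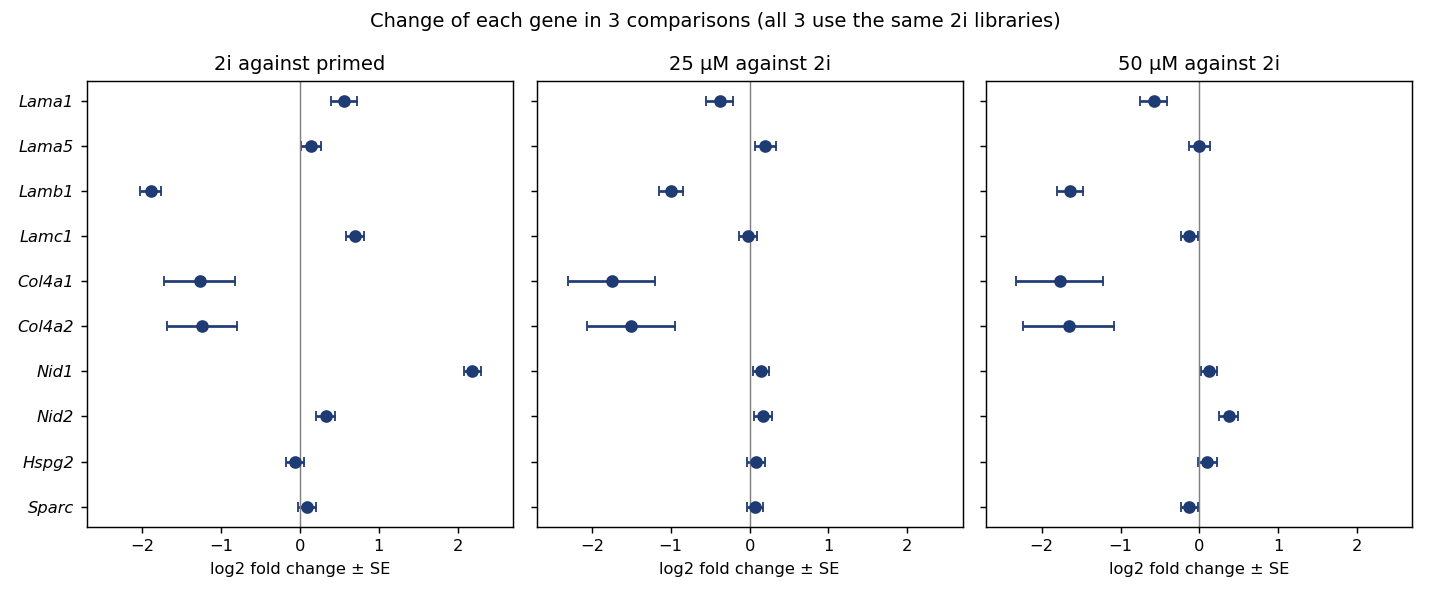
Log2 fold change ± SE (x axis) of the 10 genes (y axis) in 2i against primed and in 25 µM and 50 µM inhibitor against 2i, each from 3 libraries a group. In 2i, Nid1 (2.19) and Lamb1 (-1.89) lie farthest from 0; with inhibitor, Lamb1, Col4a1 and Col4a2 lie lowest, and the collagen bars are the widest.

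With the MRE11 inhibitor in 2i, the genes with the lowest values relative to 2i were again Lamb1, Col4a1 and Col4a2, and the remaining 7 stayed within 0.58 of 0 on the log2 scale. These comparisons share the 2i libraries with the comparison above and with each other, and Lamb1 was named for its fall with dose, so the counts that follow are given beside their background and nothing is read from them. In 25 µM against 2i, 1 of the 10 genes was called, lower, where 0.937% of genes were called and 0.484% were called lower. In 50 µM against 2i, 3 of the 10 were called, 1 higher and 2 lower, where 15.1% of genes were called, 7.01% higher and 8.07% lower; that count was 1 without 2i replicate 3 or without 50 µM replicate 2. In 50 µM against 25 µM, edgeR called 0 of the 10, where 1.16% of genes were called.

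Lamb1 was at 15.4, 13.5 and 13.6 CPM with 25 µM and at 8.11, 10.3 and 8.74 CPM with 50 µM, against 35.2, 25.9 and 23.9 CPM in 2i alone. The 3 groups were ordered with no overlap, a pattern found in 2.0% of the genes tested and in no other of the 10. Relative to 2i the mean was 2.0-fold lower with 25 µM and 3.13-fold lower with 50 µM, log2 fold changes of -1.0 ± 0.15 and -1.64 ± 0.16 (SE). The step from 25 to 50 µM was -0.64 ± 0.17, and rested on 46 to 98 reads per library. The ratio of Lamb1 to Lamc1 reads went on from 0.169 in 2i to 0.0869 ± 0.00639 with 25 µM and 0.0599 ± 0.00931 with 50 µM (SD, n = 3).

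Lamc1 itself was at 183, 164 and 145 CPM with 25 µM and at 163, 165 and 129 CPM with 50 µM, overlapping the 2i libraries at both doses. Its log2 fold changes against 2i were -0.02 ± 0.11 and -0.13 ± 0.11 (SE). Lama1 was at 17.1, 18.2 and 23.3 CPM with 25 µM and at 18.5, 13.9 and 19.1 CPM with 50 µM, in each case below all 3 libraries of 2i alone, as 9.25% of genes were with 25 µM and 16.4% with 50 µM. Its log2 fold changes were -0.38 ± 0.17 and -0.58 ± 0.17, and its mean with 50 µM was 17.2 CPM, beside 17.4 CPM in primed cells. Lama5 ranged from 52.9 to 75.7 CPM over the 6 inhibitor libraries and overlapped 2i at both doses, with log2 fold changes of 0.20 ± 0.13 and -0.00 ± 0.13.

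Col4a1 was at 10.5, 7.0 and 8.09 CPM with 25 µM and at 7.75, 7.01 and 10.5 CPM with 50 µM, each below the lowest 2i library. The mean was 3.36-fold lower with 25 µM and 3.41-fold lower with 50 µM than in 2i, log2 fold changes of -1.75 ± 0.55 and -1.77 ± 0.55 (SE). Between the doses Col4a1 did not differ beyond the spread, with a change of -0.02 ± 0.64. Col4a2 was at 3.14, 1.79 and 2.98 CPM with 25 µM and at 2.82, 1.79 and 2.59 CPM with 50 µM, from 11 to 21 reads per library. Its log2 fold changes against 2i were -1.50 ± 0.56 and -1.66 ± 0.58, and all 6 inhibitor libraries lay below the lowest 2i library.

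The size of these collagen values rests in part on 2i replicate 1, at 49.4 CPM of Col4a1 where the other 2i libraries had 16.2 and 20.5 CPM. Without that library the log2 fold change of Col4a1 was -1.12 ± 0.44 with 25 µM and -1.15 ± 0.44 with 50 µM (SE), and that of Col4a2 was -0.91 ± 0.51 and -1.08 ± 0.53. In the edgeR fit used for the results here, which has no block on replicate number, neither collagen was called at either dose. Col4a1 was called at both doses under another alternative besides the block. Same-numbered libraries correlated only weakly in these comparisons, most for replicate 1, and no shared batch is stated. When blocked on the replicate number, both collagens were called lower at both doses, with values of -1.69 and -1.67 for Col4a1 and -1.48 and -1.60 for Col4a2. The block brought the count of the 10 genes called to 3 with 25 µM, where 4.74% of all genes were then called, and to 5 with 50 µM, where 24.5% were.

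The nidogens, perlecan and Sparc overlapped the 2i libraries or lay above them. Nid1 was at 186, 191 and 152 CPM with 25 µM and at 166, 181 and 176 CPM with 50 µM, so it stayed close to its level in 2i, just above all 2i libraries with 50 µM and overlapping them with 25 µM (log2 fold changes of 0.14 ± 0.10 with 25 µM and 0.12 ± 0.10 with 50 µM, SE). Nid2 was at 162, 150 and 126 CPM with 25 µM and at 182, 167 and 154 CPM with 50 µM, and the 50 µM libraries lay above all 2i libraries, as for 16.1% of genes (0.37 ± 0.12), with Rtraf at 251 CPM at both doses. Hspg2 ranged from 36.5 to 41.6 CPM and Sparc from 440 to 610 CPM over the 6 inhibitor libraries, both overlapping 2i at each dose. Of the 10 genes, 5 had means that fell from 2i to 25 to 50 µM (Lama1, Lamb1, Lamc1, Col4a1 and Col4a2), as 26.9% of genes did, and 2 had means that rose (Nid2 and Hspg2), as 29.0% of genes did.

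Genes with the profile nearest to that of Lamb1 over the 12 libraries, among 8445 genes whose log2 CPM averaged 3 or more, were Gja1, Cotl1, Col18a1, Acer2 and Cul4b (Pearson correlation 0.984, 0.983, 0.980, 0.979 and 0.978 on log2 CPM). The 12 points come from 4 groups and share the replicate numbers, and the values are a description. Gja1, the gap junction protein connexin 43, had means of 90.7 ± 4.72, 47.8 ± 4.09, 35.1 ± 1.68 and 27.5 ± 2.97 CPM (SD, n = 3) in primed, 2i, 25 µM and 50 µM cells. Col18a1, the basement membrane collagen from which endostatin is cut, had 107 ± 7.76, 46.0 ± 1.63, 36.5 ± 3.87 and 26.8 ± 0.975 CPM. Cotl1, an actin-binding protein, had 56.1 ± 6.70, 24.3 ± 1.90, 14.8 ± 1.92 and 13.3 ± 0.826 CPM. Acer2, a ceramidase, and Cul4b, a ubiquitin ligase scaffold, moved less, from 75.6 to 41.7 CPM and from 185 to 92.6 CPM between primed cells and 50 µM.

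**Figure D4:**
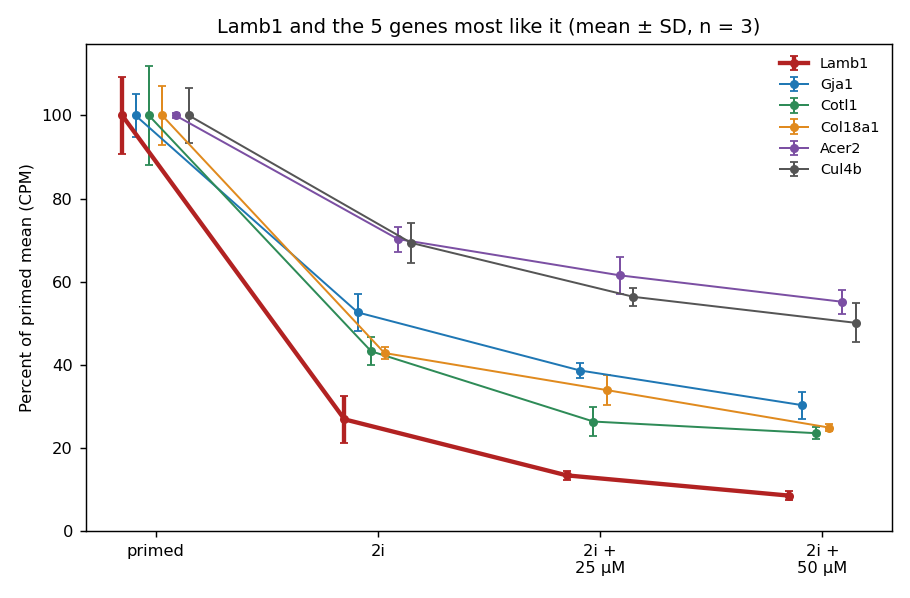
Level of Lamb1 and of the 5 genes nearest to it, as percent of each gene's primed mean (y axis; points, mean; bars, SD, n = 3) in the 4 groups (x axis). All 6 go down from primed to 50 µM, Lamb1 from 105 to 9.05 CPM and Acer2 only from 75.6 to 41.7 CPM.

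The rest of the laminin family held few genes at this depth. Of the 7 other laminin chains, 3 passed the low-count filter, and in 2i against primed 1 rose, none fell and 2 were not called. Lamb2, the β2 chain, rose by 0.69 ± 0.17 on the log2 scale (SE; edgeR adjusted p = 0.0025), from 13 ± 2.0 to 20.9 ± 3.78 CPM (SD, n = 3), in the direction opposite to Lamb1. Lama3, the α3 chain found in epithelial laminins, had a value of 0.09 ± 0.22. With 50 µM inhibitor against 2i, Lama3 was lower (-0.98 ± 0.24, from 10.5 to 5.35 CPM) and Lamb2 was at 0.31 ± 0.16.

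Of 18 other basement membrane collagens, proteoglycans and linkers, 7 were tested, of which 3 rose and 2 fell in 2i, with a median log2 fold change of 0.32. Col18a1 fell by 1.22 on the log2 scale, with an SE of 0.10 (edgeR adjusted p = 1.8e-09). Frem2, a matrix protein of embryonic epithelia, fell by 3.07 with an SE of 0.70, from 1.86 to 0.203 CPM. Npnt, nephronectin, an integrin ligand, rose by 1.02 ± 0.26 and Agrn, the proteoglycan agrin, by 0.32 ± 0.10. With 50 µM against 2i, Col18a1 was at -0.78 ± 0.11 and Agrn at 0.39 ± 0.10.

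Among receptors for laminin and collagen, 11 of 12 were tested, and 6 fell, none rose and 5 were not called in 2i against primed (median -0.44). The 4 with the smallest p were Ddr1, a collagen receptor kinase (-1.59 ± 0.13), Itga3 (-1.72 ± 0.20) and Itga6 (-0.54 ± 0.09), integrin α chains for laminin, and Bcam, a receptor for laminin α5 (-1.12 ± 0.19; log2 fold changes ± SE). The mean of Ddr1 went from 64.7 ± 1.95 to 21.5 ± 2.22 CPM and that of Itga6 from 167 ± 11.4 to 114 ± 2.12 CPM (SD, n = 3). With 50 µM against 2i, 1 of the 11 was called, Ddr1, at -0.84 ± 0.15, and 2 with the replicate block, which added Sdc4, a syndecan, at 0.38.

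Of 10 adaptors that tie integrins to actin, 4 fell, 1 rose and 5 were not called in 2i (median -0.24). The 4 that fell were Zyx, zyxin (-2.57 ± 0.31), Fermt1, kindlin-1 (-3.56 ± 0.59), Vcl, vinculin (-0.62 ± 0.11), and Parva, α-parvin (-1.49 ± 0.28, log2 fold changes ± SE). Fermt1 was near the floor in 2i, going from 3.83 CPM in primed to 0.303 CPM, with 1 to 3 reads per 2i library. With 50 µM against 2i, Pxn, paxillin, was called higher (0.51 ± 0.16) and Tln1, talin, was at 0.21 ± 0.10. The replicate block added Ilk, integrin-linked kinase, at 0.37.

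Of 15 genes of collagen folding, modification and export, 13 were tested, of which 3 rose, 5 fell and 5 were not called in 2i (median -0.21). Pxdn, the peroxidase that crosslinks collagen IV, fell by 3.46 with an SE of 0.34 on the log2 scale (edgeR adjusted p = 2.91e-08), from 11.5 ± 1.54 to 1.04 ± 0.657 CPM (SD, n = 3). Fkbp10, an endoplasmic reticulum prolyl isomerase, fell by 2.95 with an SE of 0.29. Serpinh1, the collagen chaperone HSP47, fell by 2.08 with an SE of 0.39, from 60.8, 24.7 and 26.8 CPM to 13.7, 5.01 and 7.90 CPM, with replicate 1 highest in both groups as for Col4a1. Colgalt1, a collagen galactosyltransferase, rose by 0.76 ± 0.12. With 50 µM against 2i, the collagen prolyl hydroxylase subunits P4ha2 (-1.39 ± 0.29) and P4ha1 (-0.56 ± 0.14) were called lower, and the other 11 were not called. The replicate block brought the 2 calls to 4, adding Loxl2, a lysyl oxidase (-2.03), and P4hb, the prolyl hydroxylase β subunit (0.21).

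Of 12 matrix proteases and their inhibitors, 8 were tested, of which 2 rose, 4 fell and 2 were not called in 2i (median -0.71). Mmp14, a membrane-bound metalloprotease (-2.17 ± 0.22), Mmp2, a secreted protease that degrades collagen IV (-1.37 ± 0.28), and Timp3, a metalloprotease inhibitor (-2.68 ± 0.29), fell. Adam10, a membrane sheddase, rose by 1.39 ± 0.17. With 50 µM against 2i, 3 of the 8 were called, all lower, Mmp2 at -1.64 ± 0.39 and Timp3 at -1.49 ± 0.44 among them.

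**Figure D5:**
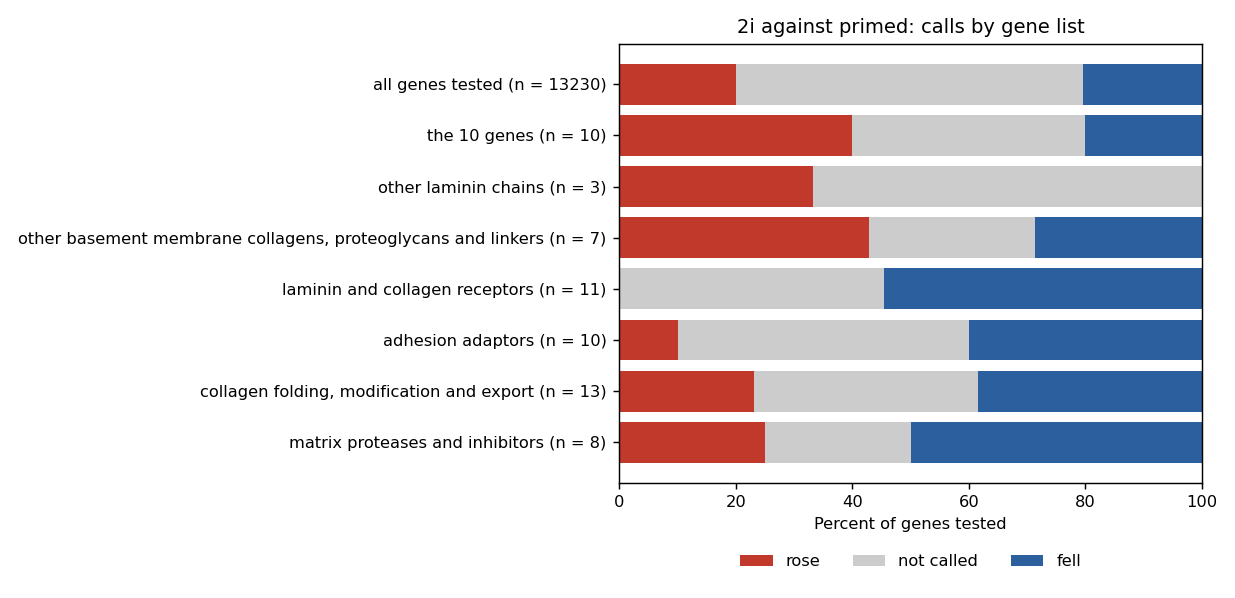
Share of tested genes (x axis, percent) that rose, fell or were not called in 2i against primed, for all genes, the 10 basement membrane genes and 6 related lists (y axis, n tested). Of all 13230 genes 20.0% rose and 20.4% fell; among 11 receptors 6 fell and none rose.

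Markers of other cell types that make basement membrane were measured in the same libraries. Some moved and some did not, and their part in the results was not tested. The 16 markers of extraembryonic endoderm, the tissue that lays down laminin and collagen IV in the early embryo, summed to 16.5 to 29.7 CPM in primed, 18.2 to 22.7 CPM in 2i, 13.9 to 19.7 CPM with 25 µM and 9.99 to 12 CPM with 50 µM. Of the 4 tested in 2i against primed, 1 rose (Srgn), 1 fell (Pth1r) and 2 were not called (Gata4 and Dab2). Of the defining markers, Ttr was at 0 in all libraries, and Gata6, Sox17, Sox7, Foxa2 and Afp had group means of at most 1.93 CPM.

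The 13 fibroblast markers summed to 42.7 to 92.9 CPM in primed, 25.0 to 29.6 CPM in 2i, 14.9 to 20.5 CPM with 25 µM and 8.63 to 12.6 CPM with 50 µM, the highest value being primed replicate 1. Of the 6 tested, 3 fell and none rose in 2i. Col1a1, the fibrillar collagen chain that led the list, had means of 25.5 ± 13.8, 7.15 ± 1.73, 1.78 ± 0.293 and 0.762 ± 0.346 CPM (SD, n = 3) in primed, 2i, 25 µM and 50 µM cells, and Thy1 had 7.85, 4.77, 2.34 and 0.275 CPM. Col1a2 also went down, at 11.3, 1.55, 0.622 and 0.609 CPM, and Col5a1 was at 10.4, 10.1, 8.2 and 4.96 CPM. Others did not follow: Twist1 had 2.11, 1.37, 1.94 and 2.71 CPM and Pdgfrb 1.71, 1.53, 2.25 and 1.39 CPM. With 50 µM against 2i, 3 of the 6 were called lower and 0 higher, where 8.07% of all genes were called lower. The stromal markers Col3a1, Dcn, Lum and Postn were at or near 0, with means of at most 0.531 CPM.

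The 8 trophoblast markers summed to 305, 159 and 136 CPM in the primed libraries, 21.9 to 29.0 CPM in 2i, 19.2 to 20.2 CPM with 25 µM and 17.6 to 18.2 CPM with 50 µM. Of the 5 tested, 3 fell in 2i, and these were the simple-epithelium keratins Krt7, Krt8 and Krt18, which other epithelia also make. The trophoblast regulators did not all go with the keratins. Gata3 had means of 4.42, 5.96, 6.22 and 3.21 CPM and Eomes 4.47, 4.29, 5.94 and 6.95 CPM in primed, 2i, 25 µM and 50 µM cells, neither called in 2i against primed. Cdx2, too low to be tested, had 0.0519 CPM in primed and 1.94 CPM in 2i cells, and Elf5 was near 0. Hand1, also too low to be tested, was lower in 2i than in primed cells, as the keratins were. Its means were 1.87, 0.355, 0.102 and 0.0497 CPM in primed, 2i, 25 µM and 50 µM cells. The 6 endothelial markers summed to 92.8 to 100.0 CPM in primed, 132 to 191 CPM in 2i, 136 to 207 CPM with 25 µM and 117 to 191 CPM with 50 µM. All 3 that were tested rose in 2i: Pecam1, which embryonic stem cells also express, by 0.76 ± 0.21, Kdr by 1.31 ± 0.30 and Tek by 0.78 ± 0.25 on the log2 scale (SE). Pecam1 made up most of the sum, at 90.4 CPM in primed and 154 CPM in 2i cells, and Cdh5 and Emcn were at 0 in all libraries.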

How the data were processed

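RNA from 12 libraries was made into QuantSeq 3′ mRNA-seq (FWD) libraries primed with oligo-dT and sequenced on a NextSeq 550, per the labels' protocols. The raw counts per gene used here were deposited by the authors, 1 table per library. Per the submitters' processing notes, FastQC, STAR, DESeq2 1.32.0 and the build GRCm38 (mm10) were used; how reads were counted, with which annotation release and strand setting, is not stated there or in the labels. Each table held 56805 features, of which 114 spike-in features with 2 counts in all were left out. Library totals were 5894561 to 7060126 counts. Positions are from the GENCODE annotation of GRCm38 and sequences from RefSeq.

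Counts were tested in edgeR 4.0.16 (R 4.3.3) by its quasi-likelihood F test, with TMM, filterByExpr, robust dispersion and all 12 libraries in 1 fit, and adjusted by Benjamini-Hochberg over 13230 genes with a threshold of 0.05. Each SE is the absolute log2 fold change over the square root of F, and 95% intervals are 1.96 SE. Log2 CPM used a prior count of 2. Groups and replicate numbers come from the labels. Deviations of same-numbered libraries from their group means correlated at 0.314, 0.168 and 0.155 (replicates 1, 2 and 3) in 25 µM against 2i. The values were 0.249, 0.115 and 0.139 in 50 µM against 2i and 0.286, 0.134 and 0.162 in 50 µM against 25 µM. In 2i against primed they were 0.244, 0.136 and 0.091. All are weak and no shared batch is stated, so whether the numbers pair libraries is not known and the block is an alternative only. Named genes are the 10 genes and the 5 others nearest to Lamb1 and to Col4a1, ranked among genes with a symbol that is not a predicted or clone name. Each related list gives the 4 with the smallest p in 2i against primed and the 2 with the smallest in 50 µM against 2i. Markers named as at or near 0, genes named for a call under the block, Pdgfrb, Col5a1, Hand1, Esrrb and Rtraf were chosen after their values were seen. The genes, lists and rules were chosen with earlier results of these data known. Some genes of these lists, and 1 list, are not reported here. Alternatives were other scaling, no filter, the replicate block, DESeq2 1.42.0, voom in limma 3.58.1, only the 2 groups compared, and leaving out libraries.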

Additional observations from a re-analysis of the deposited data

How the results depend on the processing

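In 2i against primed, 118 of 140 alternative values of the 10 genes (14 alternatives each) kept their direction and their side of the threshold, 13 lost a call, 8 gained one and 1 changed sign. The sign change was Hspg2, at 0.05 without 2i replicate 2, and its range over left-out libraries was -0.17 to 0.05. Lamb1, Lamc1 and Nid1 kept their calls under each of the 14, with values of -2.07 to -1.79, 0.66 to 0.78 and 2.09 to 2.27. Beyond the left-out libraries given beside the results, Col4a2 lost its call with DESeq2 (-1.25 ± 0.54, adjusted p = 0.0531) and with only the 2 groups compared (-1.23 ± 0.57, adjusted p = 0.145), at values near the -1.24 reported and with larger SEs, and Col4a1 gained one with DESeq2 size factors (adjusted p = 0.0498), library totals only (0.0433), DESeq2 (0.0254) and voom (0.0017). The cause was not tested.

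In 2i against primed the correlations of same-numbered libraries were 0.244, 0.136 and 0.091, weak as in the inhibitor comparisons. With the replicate block in edgeR 7 of the 10 genes and 6294 of all genes were called, Col4a1 being the addition (adjusted p = 0.000273). Counts over all genes: 25 µM against 2i called 124, with 268 without the low-count filter, 627 with the replicate block and 29 to 101 when a library was left out; 50 µM against 2i called 1994, with 3240 under the block and 1217 to 1668 when a library was left out; 50 µM against 25 µM called 153, with 329 without the filter, 542 under the block, 38 to 203 when a library was left out and 238 without replicate 1 of every group, which was chosen after seeing the data. Of the 10 genes, 25 µM against 2i called 1, with 3 under the block. DESeq2 called 2 of the 10 there, where it called 161 of 13230 genes. The fit without replicate 1 of every group also called 2 there, and 140 of 13287 genes. For 50 µM against 2i, 3 of the 10 were called, with 5 under the block and 1 to 3 when a library was left out. Without replicate 1 of every group 5 were called. Over all alternatives the count of all genes ran from 1217 to 3240 in that comparison. In 50 µM against 25 µM 0 of the 10 were called, with 1 each without the filter, under the block and with DESeq2. The count of all genes ran from 38 to 542 there. Scaling by library totals only moved the split of calls higher against lower from 60 and 64 to 36 and 77 in 25 µM against 2i, and from 927 and 1067 to 559 and 1294 in 50 µM against 2i. Depth limits Col4a2 most, at 11 to 184 reads per library.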

Other observations

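The 5 genes whose profile was nearest to that of Col4a1 over the 12 libraries were Las1l, Trim44, Rad50, Ccdc77 and Wdr12 (Pearson correlation 0.965, 0.961, 0.955, 0.949 and 0.946 on log2 CPM), none of them a matrix gene. Rad50, the ATPase that binds MRE11 in its complex, had means of 426 ± 34.6, 295 ± 16.9, 231 ± 25.1 and 229 ± 7.55 CPM (SD, n = 3) in primed, 2i, 25 µM and 50 µM cells, with no overlap between primed and 2i or between 2i and either dose. Its log2 fold change in 2i against primed was -0.53 ± 0.09 (SE; edgeR adjusted p = 7.43e-05). Las1l, a ribosome biogenesis factor, had 136, 108, 93.3 and 88.1 CPM, and Wdr12, another, had 176, 160, 143 and 135 CPM. The correlations share the 4 groups and the replicate numbers of the same libraries, and are given as a description.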
